A study of Mus musculus with 7 samples.

Results

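Nrip1 encodes RIP140, a corepressor that binds nuclear receptors carrying an activating ligand and brings histone deacetylases and CtBP proteins to their target genes. Mice without Nrip1 form mature follicles but do not release the oocyte, so the gene is known in the ovary for its part in ovulation. Nrip1 is also known as an estrogen-responsive gene in breast cancer cell lines. Estrogen receptor beta (ERβ, encoded by Esr2), the receptor of granulosa cells, binds DNA as a dimer at the estrogen response element (ERE), which is made of the half-sites GGTCA and TGACC on either side of a spacer of 3 bases.

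The data were the ERβ ChIP-seq signal around Nrip1 in mouse ovary. In the 5 libraries analysed, fresh ovaries of female C57BL/6J mice that express endogenous ERβ were the source of 3 ERβ ChIP libraries (antibody PPZ0506) and of 2 inputs, which are sheared chromatin sequenced without the antibody step. No treatment was given, the labels state no age, and each replicate pooled ovaries of several mice. The labels also list 2 ChIP samples of ERβ knockout ovaries, which were not analysed here, so the signal that remains without ERβ was not measured here. The study reports that most of its binding sites held when ChIP of knockout ovaries replaced the input. Whole ovary was used, and a larger share of cells with ERβ on a site cannot be told apart from more ERβ on the site in each cell.

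Nrip1 (ENSMUSG00000048490.14) lies on the minus strand of chromosome 16 in GRCm38, at chr16:76287400-76373827. Its sites were chosen by the ChIP signal itself. A site was a 200-bp window in which at least 2 of 3 ChIP libraries were over 4 times the mean of the inputs, the input being set to at least its genome mean. It was given to Nrip1 when a start site of an Nrip1 coding transcript was the nearest one of any protein-coding gene, within 500 kb of the gene body. Windows with centres at most 200 bp apart were 1 site. By this rule Nrip1 had 9 of the 4888 sites in the genome. Over the genome, 0.0431% of 263377298 windows passed. Because the rule used the fold over input, the folds at the 9 sites are descriptions without a test.

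The sites were numbered from the highest to the lowest mean fold. Site 1 lay in the large intron 3 of Nrip1, and it was the strongest by a wide margin. Sites 3, 5 and 6 stood beside it in the same intron. Site 4 was at the upstream promoter, site 2 was far downstream of the gene, and sites 7, 8 and 9 were far upstream. The genome sequence (GRCm38, plus strand) of the strongest intronic site, chr16:76321651-76321850, and of the downstream site, chr16:76200921-76201120, is given because these windows had the highest folds of the 9. Capitals mark the half-sites of the best ERE match.
Site 1: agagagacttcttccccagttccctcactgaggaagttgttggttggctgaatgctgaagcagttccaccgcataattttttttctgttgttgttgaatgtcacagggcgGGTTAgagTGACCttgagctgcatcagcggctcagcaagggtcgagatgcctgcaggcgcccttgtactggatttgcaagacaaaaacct
Site 2: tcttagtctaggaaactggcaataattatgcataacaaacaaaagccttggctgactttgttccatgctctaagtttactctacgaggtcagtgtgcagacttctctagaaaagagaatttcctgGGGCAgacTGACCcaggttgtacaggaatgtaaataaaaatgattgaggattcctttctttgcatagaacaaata

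The best ERE match of every site, with 8 bases on each side, shows how the elements differ. Capitals mark the bases set against the half-sites GGTCA and TGACC.
Site 1: acagggcgGGTTAgagTGACCttgagctg
Site 2: atttcctgGGGCAgacTGACCcaggttgt
Site 3: gtcgaatgGGTCAgctTGTCCtcatctat
Site 4: taactctaGGTCAtttTGACCccatgctc
Site 5: acattctaGGTCAgagCAACGgatttgca
Site 6: tatgactaGGTCActgCACCCacctcaag
Site 7: tgagttctGGGCAcccTGACCtttgtaac
Site 8: taaagtatGTTCAaagTGACCttcagtta
Site 9: gtcaagaaGGTCGgcaTGACCttgagtga

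Only the promoter site, site 4, held an ERE without mismatch. Counting positions from 1 at the 5′ end of the element on the plus strand, the element of site 1 differed by C4T. Sites 2 and 7 differed by the same substitution, T3G. The substitution was A11T at site 3, G2T at site 8 and A5G at site 9. Sites 5 and 6 kept an intact GGTCA half-site but had 3 mismatches in the other one, and neither had an ERE with 2 mismatches or fewer.

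Nrip1 had 4 annotated coding transcripts. In the full-length ones the coding sequence of 3483 bp was held by exon 4, so the introns before it span most of the gene. The upstream start was at position 76373827, another start was 778 bp downstream of it, and a short transcript started inside intron 3, 50.2 kb downstream. The nearest protein-coding neighbours were Samsn1, an adaptor gene of immune cells, and Usp25, a gene for a deubiquitinating enzyme. The nearest Samsn1 start was 414 kb from the internal Nrip1 start, and the Usp25 start was 639.9 kb from the upstream one. The stretch whose nearest coding start was one of Nrip1 was 577 kb long, and its 9 sites came to 1.56 per 100 kb, beside 0.186 per 100 kb over the genome. Samsn1 had no site.

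**Figure D1:**
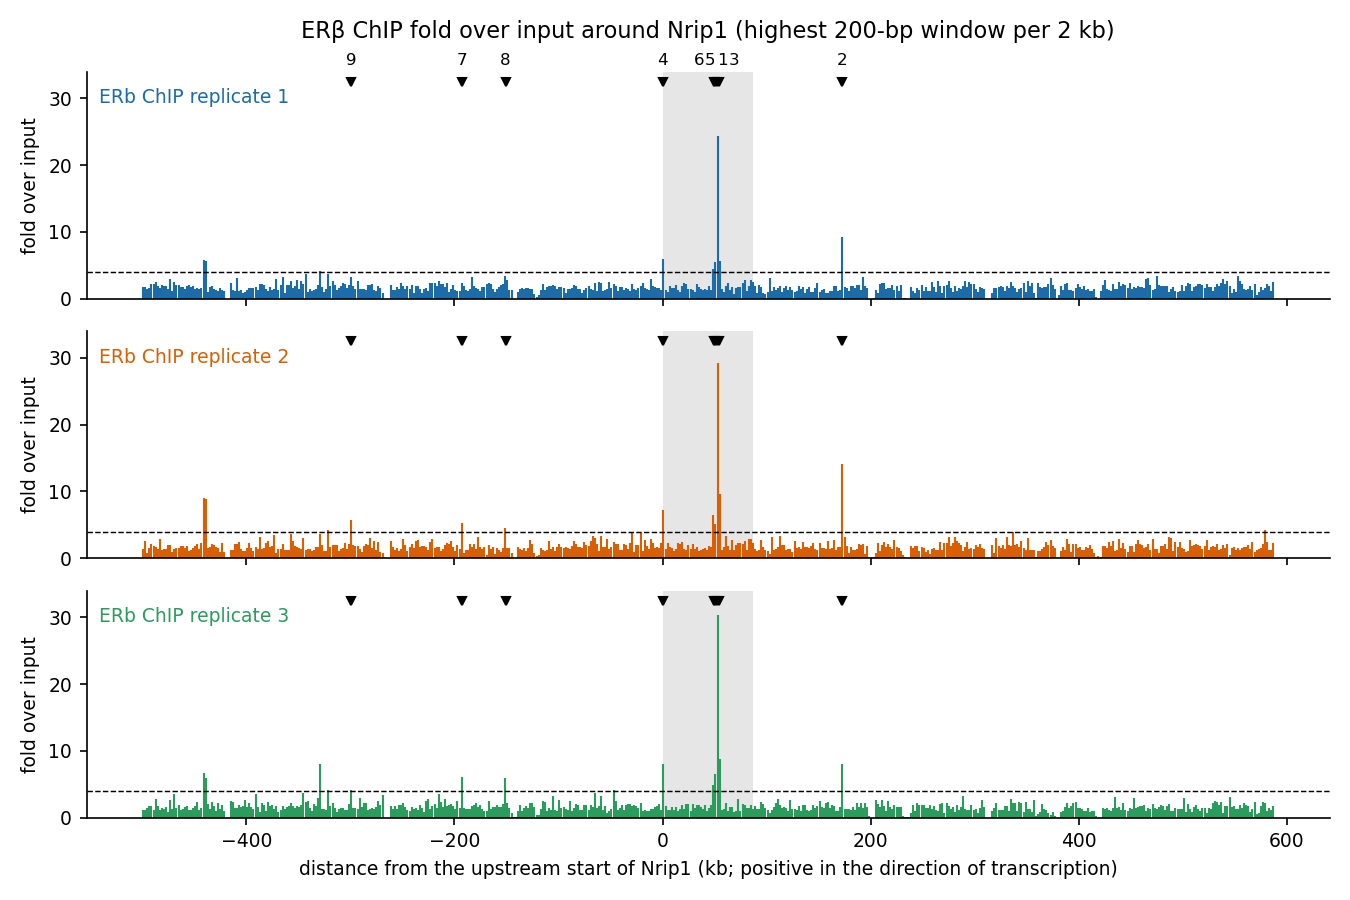
Highest fold over input of any 200-bp window in each 2 kb (y axis) by distance from the upstream start of Nrip1 in kb (x axis, positive in the direction of transcription), 1 panel per ERβ ChIP library; the gene body is shaded, triangles mark the 9 sites by number and the dashed line is 4-fold. Site 1 stands above every other position in all 3 libraries, at 24.3, 29.3 and 30.3, and the bars over 4-fold upstream of site 9 belong to the nearest coding start of Usp25.

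At the promoter, site 4 was centred 137 bp downstream of the upstream start, at chr16:76373591-76373790. It lay in intron 1 of the 2 transcripts that begin at the upstream start, whose first exon ends within the window, and 641 bp upstream of the other promoter start. The signal, in the authors' normalised units, was 5.62, 6.79 and 7.55 in ChIP replicates 1, 2 and 3, against 0.967 and 0.908 in the inputs. The folds were 5.99, 7.24 and 8.05, with a mean of 7.10 ± 1.04 (SD, n = 3). All 3 ChIP libraries were above both inputs, with no overlap, which the choice of the site by fold over input favours. The perfect ERE was 2 bp from the centre of the window. ChIP signal at the promoter was not centred on the starts themselves. A 200-bp window on the upstream start had folds of 3.51, 4.98 and 4.36. On the start 778 bp downstream the folds were 0.957, 0.645 and 1.59, and at that position ChIP was not separated from input.

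The cluster in intron 3 held 4 sites within 5 kb around the internal start. Site 1, at chr16:76321651-76321850, was centred 1908 bp downstream of that start and 52.1 kb downstream of the upstream start. Its signal was 23.6, 28.4 and 29.4 in ChIP replicates 1, 2 and 3 and 1.04 and 0.90 in the inputs. The folds were 24.3, 29.3 and 30.3 (mean 27.9 ± 3.20, SD, n = 3). The ChIP replicates differed from one another far less than any of them differed from the inputs, a separation that the choice of the site by fold favours. By mean fold site 1 ranked 78th of the 4888 sites, so 1.58% of all sites were stronger, while the median site had 6.20.

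Site 3, at chr16:76319821-76320020, stood 1.83 kb beyond site 1 in the direction of transcription. Its signal was 3.46, 5.79 and 5.37 in the ChIP libraries and 0.608 in both inputs. The folds of 5.69, 9.52 and 8.84 averaged 8.02 ± 2.04 (SD, n = 3). Replicate 1 was the lowest, and it still lay above both inputs, which the choice by fold favours.

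Site 5, at chr16:76323791-76323990, lay just upstream of the internal start, 232 bp from it. Its signal was 4.42, 4.17 and 5.10 in the ChIP libraries and 0.932 and 0.682 in the inputs, which gave folds of 5.48, 5.16 and 6.31. It was the site with the smallest spread, with a mean of 5.65 ± 0.595 (SD, n = 3). A window placed on the internal start itself had folds of 1.44, 1.49 and 1.1.

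Site 6, at chr16:76324481-76324680, was 0.690 kb from site 5 and 922 bp upstream of the internal start. It had the lowest signal of the cluster, 1.79, 2.60 and 1.96 in the ChIP libraries, and the inputs were also low there, at 0.376 and 0.420. The folds were 4.51, 6.52 and 4.93 (mean 5.32 ± 1.06, SD, n = 3). More of its window was annotated as repeat sequence than at any other of the 9 sites, 53.5% of the bases. Over all sites in the genome 5.50% had another site within 2 kb, and at Nrip1 these 4 sites did.

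**Figure D2:**
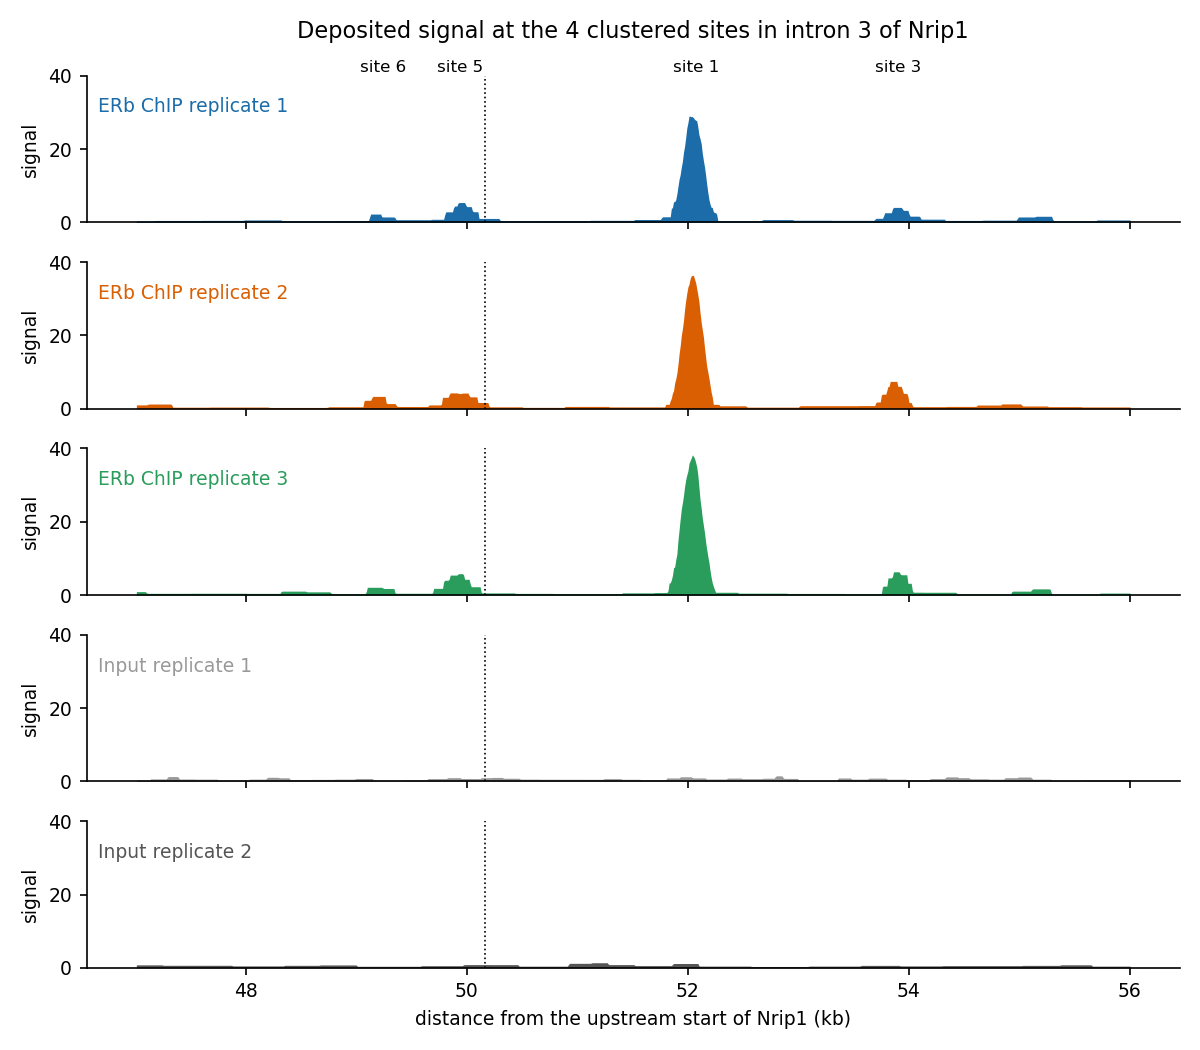
Deposited signal (y axis, the same scale in every panel) over 9 kb of intron 3 by distance from the upstream start in kb (x axis), for the 3 ERβ ChIP libraries and the 2 inputs; the dotted line is the internal start. The peak of site 1 reaches 29.0, 36.4 and 38.3 in ChIP replicates 1, 2 and 3, the peaks of sites 6, 5 and 3 are lower but stand at the same places in all 3 libraries, and the inputs do not exceed 1.27 within 400 bp of these sites.

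Downstream of the gene, site 2 was centred 173 kb from the upstream start and 123 kb from the internal one. The signal was 5.49, 8.27 and 4.80 in the ChIP libraries, against 0.661 and 0.520 in the inputs. Its folds of 9.30, 14.0 and 8.13 averaged 10.5 ± 3.11 (SD, n = 3), the second highest of the 9. Replicate 2 was the high one here. No annotated gene body covered the site, and the nearest start of any transcript was that of the processed pseudogene Gm26915, 56 kb away.

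Upstream of the gene, 3 sites passed in ChIP replicates 2 and 3 but not in replicate 1. They lay in intergenic sequence, and a start of a long noncoding RNA was nearer to each than any coding start, Gm45030 for site 8, Gm30726 for site 7 and Gm45029 for site 9. Site 8, at chr16:76524601-76524800, was 151 kb upstream. Its signal was 1.95, 2.32 and 3.32 in the ChIP libraries and 0.654 and 0.490 in the inputs, and its folds were 3.40, 4.06 and 5.80 (mean 4.42 ± 1.24, SD, n = 3).

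Site 7, at chr16:76566291-76566490, was 193 kb upstream. ChIP replicates 2 and 3 were high, with signals of 5.24 and 6.01, while replicate 1 was at 2.27. The inputs were 0.781 and 1.21, the highest input level of the 9 sites being that of Input replicate 2 here. The folds of 2.28, 5.25 and 6.02 gave a mean of 4.52 ± 1.98 (SD, n = 3), the widest spread relative to the mean among the 9.

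Site 9, at chr16:76672901-76673100, was the farthest, 299 kb upstream. Its signal was 1.58, 2.86 and 2.09 in the ChIP libraries, and the inputs differed from each other by 2.12-fold, at 0.686 and 0.324. The folds were 3.13, 5.66 and 4.13 (mean 4.31 ± 1.28, SD, n = 3). Every ChIP library was above both inputs at this site, but the margin depended on the input used.

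**Figure D3:**
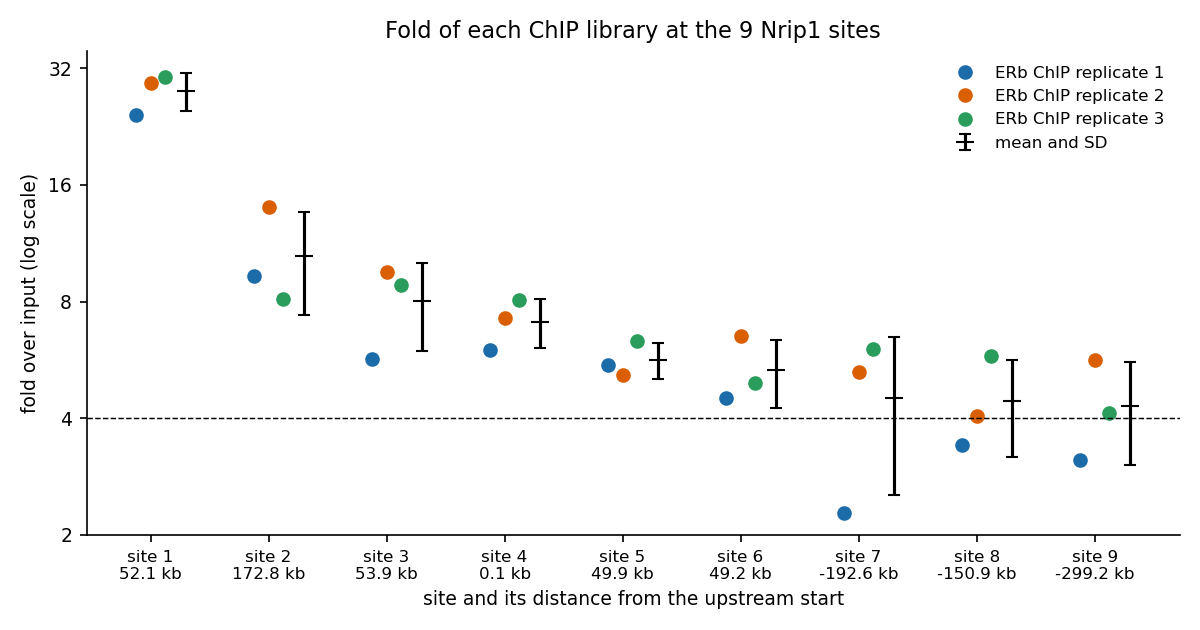
Fold over input on a log scale (y axis) of each ERβ ChIP library at the 9 sites (x axis, with the distance of each from the upstream start in kb), with the mean and SD of the 3 libraries; the dashed line is 4-fold. All 3 libraries lie over the line at sites 1 to 6, and replicate 1 lies under it at sites 7, 8 and 9, at 2.28, 3.40 and 3.13.

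Sites 1 to 6 were over 4-fold in all 3 ChIP libraries. That is 6 of 9, near the 65.8% of all sites in the genome, so it does not set Nrip1 apart. Replicate 1 had the lowest fold at 7 of the 9 sites, and at 61.9% of all sites. The names of the tracks of ChIP replicate 1 and Input replicate 1 lack a prefix that the tracks of ChIP replicates 2 and 3 and Input replicate 2 carry. With 1 ChIP library on one side of that split, the replicate and the naming of the track cannot be told apart. When each ChIP library was set over the input with the same prefix, an alternative chosen after the data were seen, the 9 sites were called again.

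The sites were ordered by these same folds, so the distances between neighbours in the order are also given without a test. Between sites 1 and 2 the log2 fold differed by 1.45 ± 0.42 (SD, n = 3 libraries), and between sites 4 and 5 by 0.32 ± 0.18, in both cases by more than 1 SD. Each of the other 6 neighbouring pairs had a mean difference within 1 SD of the differences between libraries. Sites 7, 8 and 9 in particular had no order beyond their spread.

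The threshold passed close to the weakest sites. The call rests on the second highest of the 3 folds, which was 4.06 at site 8, 4.13 at site 9 and 4.93 at site 6. Just outside, the highest such value elsewhere in the 577 kb was 3.07, 65.8 kb upstream, followed by 2.83 at 152 kb upstream. One input over the other gave at most 3.11 in any window of the gene body and its flanks.

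A fold read in a ChIP library that took no part in a call is free of that call's selection on the library. It is not free of the selection on the inputs. Over the 9 sites and the 3 pairs of ChIP libraries there were 21 such calls, and the library left out was over 4-fold in 18 of them. These 18 are the calls of sites 1 to 6, which are the sites over 4-fold in all 3 libraries. Over the genome 65.8% of all sites were of that kind, so the count does not set Nrip1 apart. For site 1 the left-out fold averaged 27.9 ± 3.18 (SD, n = 3), with a range of 24.3 to 30.2. Site 1 was named the strongest by the mean of all 3 libraries, so these values are not free of that choice and nearly repeat its folds above. With both inputs, sites 7, 8 and 9 were called only from replicates 2 and 3, and the left-out replicate 1 then had folds of 2.17, 3.40 and 3.09. For scale, 0.0380% of all windows in replicate 1 were over 4-fold. When the call used 1 input and the left-out library was read over the other one, site 1 lay between 22.6 and 32.7 in 6 of 6 readings. In all, 35 of 42 such readings were over 4-fold, a count for which no share over all sites is given here. Site 5 had 3.88 and site 6 had 3.38 in 1 of 6 readings each. Site 7 had 1.77 and 2.80 in its 2 readings and site 8 had 2.93 in its only one. Site 9, called from each pair of libraries over Input replicate 2 alone, had 2.27, 4.17 and 3.04 when read over Input replicate 1.

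Outside the sites the ChIP libraries averaged 1.16, 1.18 and 1.14 times their genome means over the 577 kb, and the inputs 1.24 and 1.15 times. The sites with 500 bp on each side made up 2.10% of that stretch and held 7.87%, 9.42% and 9.58% of the signal of ChIP replicates 1, 2 and 3. The inputs had 3.18% and 3.11% of their signal there.

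At the 7 sites with an ERE, the summit of the ChIP signal was a median of 23.0 bp from the centre of the element over 21 summits, and 19 of them were within 50 bp. The windows searched for an ERE were placed by the ChIP signal, which keeps the element within about a window of the summit. Sites 5 and 6 had no ERE, and their best match with 3 mismatches was also near the summits. The distances in ChIP replicates 1, 2 and 3 were 33, 103 and 33 bp at site 5 and 26, 6 and 46 bp at site 6. A short distance was therefore not particular to the sites with an ERE. At sites 1 to 8 the width of the peak at 0.5 of its summit signal was 200 to 370 bp in the ChIP libraries. At site 1 it was 210 to 220 bp. Site 9 was the exception, with widths of 710, 460 and 370 bp and a second ERE at the edge of its window.

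**Figure D4:**
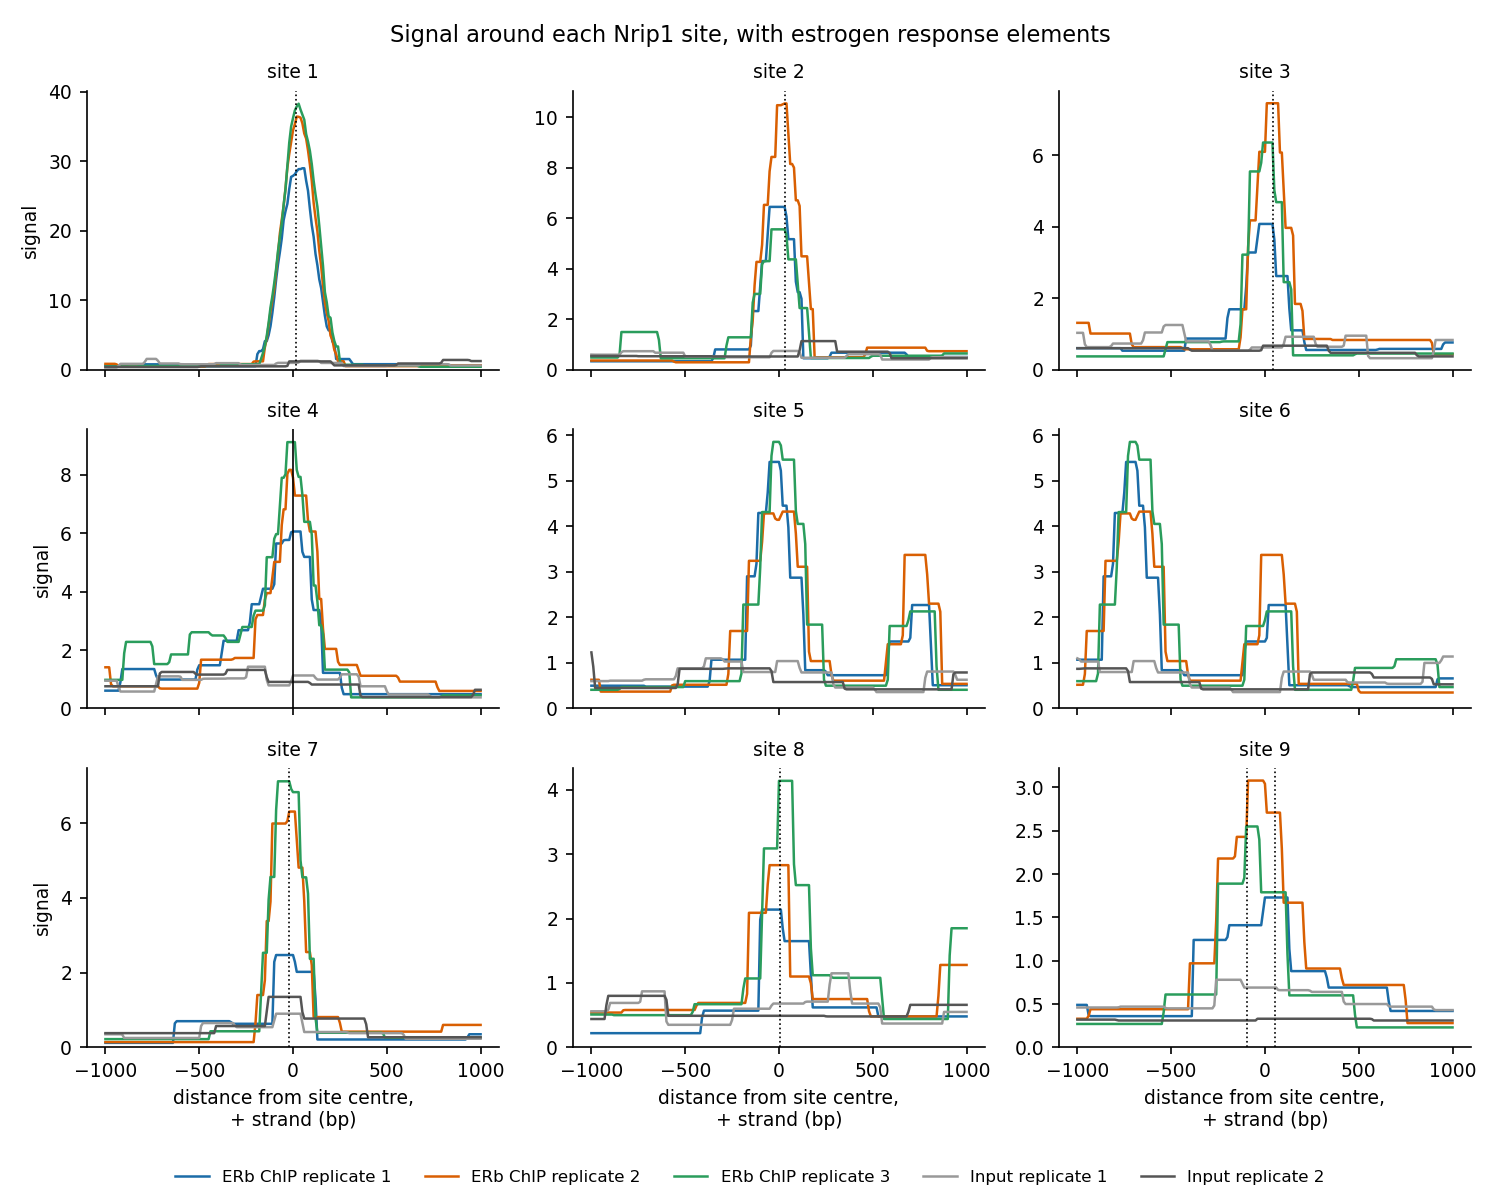
Deposited signal (y axis, its own scale in each panel) within 1000 bp of the centre of each site (x axis, along the plus strand) in the 3 ERβ ChIP libraries and the 2 inputs; the solid vertical line is the ERE without mismatch of site 4 and dotted lines are EREs with 1 mismatch. The ChIP peaks of sites 1, 2, 3, 4, 7 and 8 stand on the marked element, sites 5 and 6 have none and appear in each other's panels, and the peak of site 9 is broad and low.

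The sequence was not used by the rule. An ERE with at most 1 mismatch was found in 7 of the 9 windows, beside 32.9% of all 4888 sites and 0.529% of all 200-bp windows of the genome. With up to 2 mismatches it was again 7 of 9, beside 67.8% of all sites and 6.68% of windows. An ERE without mismatch was found in 1 of 9, beside 6.30% of all sites. The highest fold at Nrip1 was not at the perfect element. Site 4, with none mismatched, had a mean fold of 7.10, close to the median of 7.45 over the 308 sites of that kind in the genome. Site 1, with 1 mismatch, had 27.9, where the 1301 sites with 1 mismatch had a median of 6.81 and an upper quartile of 10.3. Sites 5 and 6, with 3 mismatches, had 5.65 and 5.32, beside a median of 5.61 over the 1575 sites with 3 or more.

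The half-site AGGTCA, on either strand, was in all 9 windows, beside 58.6% of all sites and 11.1% of windows. In 7 of the 9 it overlapped the best ERE match, so the counts are not separate. The NR5A motif (TCAAGGTCA or CCAAGGTCA, either strand), read by the orphan receptors SF-1 and LRH-1 of steroidogenic and granulosa cells, was in 2 of 9 windows, those of sites 1 and 9, beside 7.16% of all sites. In both it shared the TGACC half-site of the ERE, which runs on as TGACCTTGA in the sequences above. An NR5A motif overlapping an ERE with at most 1 mismatch was present at 1.17% of all sites. A GATA motif (AGATAA or TGATAA) was in 4 of 9 windows, sites 4, 5, 6 and 8, beside 29.6% of all sites and 24.1% of windows. An AP-1 motif (TGAGTCA or TGACTCA) was in 1, site 5, which had no ERE, beside 6.63% of all sites. The FOXO motif (TGTTTAC) was in 0 of 9, beside 4.71% of all sites. A match is a description of the letters and not a site of binding. The GC content had a median of 49.5% both at the 9 sites and at all sites.

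In the 577 kb there were 20 EREs with at most 1 mismatch. The only perfect one was that of the promoter, and it was in a site. Of the 19 with 1 mismatch, 7 were in sites, 2 of them in site 9. At the 12 outside the sites the mean fold had a median of 0.876 and reached at most 1.37. Both inputs were also at 0 at 2 of these 12, so ChIP could not be compared with input there. The site-bound and the other elements did not overlap in mean fold, as the choice of the sites by fold fixes.

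**Figure D5:**
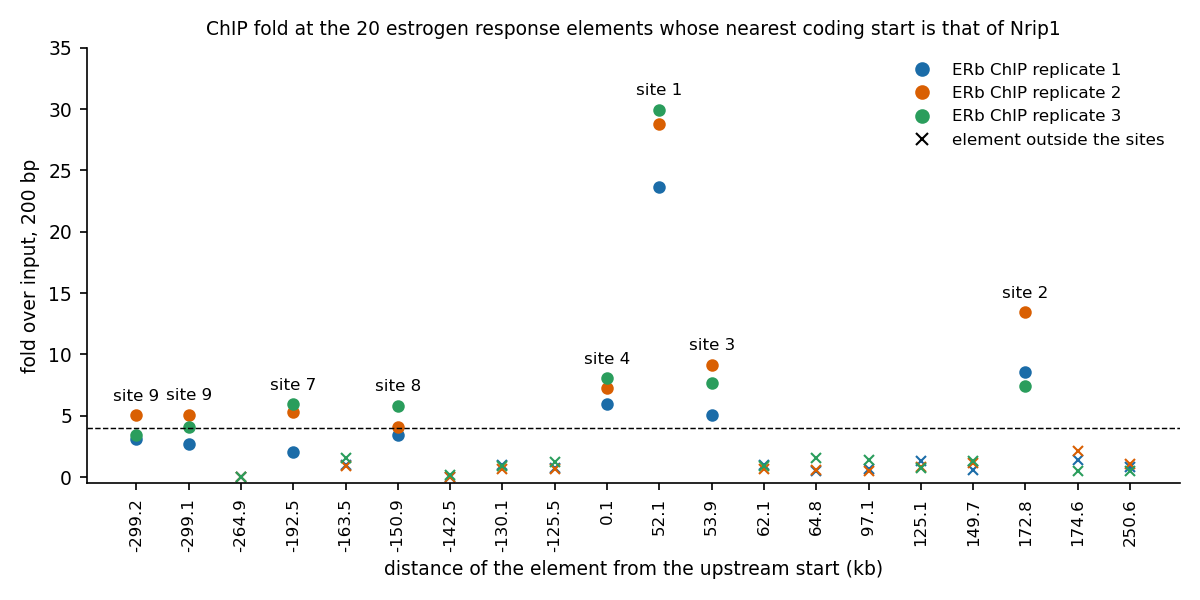
Fold over input in 200 bp centred on each of the 20 EREs with at most 1 mismatch (y axis) by the distance of the element from the upstream start in kb (x axis, in order and not to scale), 1 point per ERβ ChIP library. Circles are the 8 elements in sites, named above the points, and crosses are the 12 outside, whose mean fold reaches at most 1.37.

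Among 21670 protein-coding genes, 14.8% had at least 1 site, and the median among them was 1 site. Only Cog6, a subunit gene of a Golgi tethering complex, had more than Nrip1, with 11. Bcat1, Rbfox1 and Zmiz1 also had 9 (these 4 genes were named after their counts were seen). The number depends on how much sequence is nearest to a gene. Of 692 genes with a stretch at least as long as that of Nrip1, 265 had any site. The strongest site of Nrip1 was exceeded by that of 76 genes. The strongest site lay 1.91 kb from a coding start at Nrip1, against 242 kb at Cog6, 337 kb at Bcat1, 181 kb at Rbfox1 and 71.3 kb at Zmiz1. The start nearest to the Nrip1 site is that of the short internal transcript.

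The 5 genes most like Nrip1 were found from the number of sites, the mean fold of the strongest and its distance from a coding start, over the 939 genes with at least 2 sites. For Nrip1 that distance was the 1.91 kb to the short internal transcript, while site 1 was 52.1 kb from the upstream start. Of the 5, 4 are given here, in order: Spsb1, an adaptor of a ubiquitin ligase (8 sites, strongest fold 30.4 ± 4.40, 20.1 kb from a start), Map4, a microtubule-binding protein (6 sites, 16.6 ± 2.41, 4.32 kb), Hdac4, a class IIa histone deacetylase (5 sites, 28.0 ± 3.07, 4.0 kb), and Arhgef28, a guanine nucleotide exchange factor (6 sites, 12.8 ± 2.25, 4.33 kb), each with the SD of 3 libraries. The distance from Nrip1, in SD units of the 3 measures, ran from 1.45 for Spsb1 to 1.94 for Arhgef28. Per 100 kb there were 5.82 sites at Spsb1, 3.43 at Map4, 2.25 at Arhgef28 and 1.14 at Hdac4, beside 1.56 at Nrip1. A density above the 0.186 of the genome was therefore not particular to Nrip1.

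Of 20 other nuclear receptor coregulator genes, 7 (35%) had at least 1 site, beside 14.8% of all protein-coding genes. The corepressor gene Ncor1 had 1 weak site, with 2.05, 4.01 and 4.2. Of the p160 coactivators, Ncoa1 had a site 0.168 kb from a start with 5.27, 8.45 and 11.7. Ncoa2 had one at 8.06 kb with 3.50, 5.64 and 4.84, and Ncoa3 had one at 80.7 kb with 4.53, 5.08 and 3.84. Nr0b2, the corepressor SHP, had 2 sites, the stronger with 8.06, 7.53 and 9.64. Med1, a Mediator subunit, had 1, with 3.74, 6.09 and 10.8. The acetyltransferase genes Crebbp and Ep300, and Ctbp1, Ctbp2, Hdac1 and Hdac3, whose products RIP140 works with, had no site. With all 3 ChIP libraries required, 3 of the 20 had a site, beside 10.8% of all protein-coding genes. Without ChIP replicate 2 it was also 3, beside 11.3%, and without replicate 3 it was 4, beside 11.9%.

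Of 18 genes of ovulation and cumulus expansion, 4 (22.2%) had a site, beside the same 14.8%. Cebpb, a transcription factor of the luteinizing response, had 4 sites. The strongest was 71.9 kb from a Cebpb start and had folds of 20.4, 30.5 and 31.7. Lhcgr, the receptor of luteinizing hormone, had 3, with 8.36, 12.9 and 18.2 at the strongest, which was 72.8 kb from a start. Cebpa had 1 site at 6.87 kb with 4.85, 3.35 and 5.18, and Runx1 had 1 at 45.2 kb with 4.38, 4.15 and 1.54. The epidermal growth factor-like ligands Areg, Ereg and Btc, the matrix genes Has2, Tnfaip6 and Ptx3, and Ptgs2 and Pgr had none. These counts hold for the rule used here. By its own peak calls, the study places ERβ-binding sites by Pgr and gives 4 sites for Lhcgr and 2 for Cebpa. Without ChIP replicate 1 the count was 2 of 18, beside 13.5% of all protein-coding genes.

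Beyond the upstream sites, Usp25 was the next gene. It had 5 sites, and 3 of them were within 500 kb of the Nrip1 body. The nearest was almost midway between the genes, 322 kb from the upstream start of Nrip1 and 318 kb from that of Usp25, with folds of 3.70, 4.28 and 4.06. Another, 330.1 kb from Nrip1, had 4.15, 3.54 and 7.96. The strongest of these 3 was 440.3 kb from Nrip1 and 199.6 kb from Usp25, with 5.77, 8.94 and 6.69. The nearest start is a rule of assignment only, and no contact between any of these sites and a gene was measured. The study places ERβ-binding sites by Nrip1, but its RNA-seq did not find the Nrip1 transcript significantly changed in ERβ knockout ovaries.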

How the data were processed

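The study's authors aligned uniquely mapped ChIP-seq reads to GRCm38 (mm10) with STAR and worked with HOMER. The deposited files are 1 genome track per library (3 ERβ ChIP, 2 Input), in which the authors gave signal (coverage), scaled to nearly equal totals and averaged over segments of variable length (median 269 to 519 bp). Genome means were 0.352 to 0.359. The study gives a range of aligned reads for its ChIP samples. The tracks themselves hold no read counts, so no counting interval was given, and the replicates alone set the precision. The labels number the replicates, and the study calls them biological.

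The signal was read in bins of 10 bp on chromosomes 1 to 19 and X with Python 3.11.15 and numpy 2.4.6. Each ChIP library was divided by the mean of the inputs, which was floored at 0.358, and calls followed the rule in the results. The caller and the motif search were tested on simulated data. Genes, transcripts and start sites came from GENCODE M21, and sequence from the GRCm38.p6 RefSeq assembly.

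The sites, the gene lists and the alternatives were chosen with earlier results of these data known. Genes were named by a rule: Nrip1, its protein-coding neighbours, list members with a site, and the 5 genes closest to Nrip1 by Euclidean distance over log2 number of sites, log2 strongest fold and log10 distance to a start, each divided by its SD. One named gene is not reported here. No test is reported on folds that the rule had used. An exact permutation test of the order of the sites had been planned and computed. It is not given because the sites were ordered by the same folds and 3 pairs cannot give a p below 0.25.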

Additional observations from a re-analysis of the deposited data

How the results depend on the processing

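Of 20 alternatives, 17 left the number of Nrip1 sites within 1.5 times the 9 reported, a range that reached down to 6 sites. In 400-bp windows, and also with a raised input floor, 6 sites were called and sites 6, 8 and 9 were lost. Over 6-fold gave 4 sites, over 8-fold 3, and the nearest start of any transcript 5, since other starts were nearer to sites 2, 7, 8 and 9. Leaving out 1 library gave 6 to 9 sites. Sites 7, 8 and 9 were lost without ChIP replicate 2 and without replicate 3, and sites 8 and 9 without Input replicate 2. With 1 ChIP library left out, both of the others had to be over 4-fold. Sites 7, 8 and 9 passed only in replicates 2 and 3, so their loss without either one repeats that result. A further criterion of 4 times the surrounding 10 kb gave 6 sites and lost sites 3, 5 and 6, which lie beside site 1. Site 1 was called under all 20 settings, site 2 under all but that of any transcript, and site 4 under all but 8-fold. The fold of site 1 was 20.5 in 400-bp windows and 25.9 to 31.1 in the other settings, with 26.0 to 30.4 when 1 library was left out. Its held-out fold was 25.9 and 29.8 with separate inputs. The log2 difference between the first and second site was 1.23 to 1.76. With no mismatch allowed, 1 site held an ERE. With at most 2 mismatches, 5 sites held one in 100 bp and 7 in 400 bp. Sites 3 and 9 were the ones without it in 100 bp.

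The list counts were less stable. For coregulator genes they were 4 in 400-bp windows, over 6-fold and by the start of any transcript, 3 over 8-fold and in all 3 libraries, and 3 to 7 with 1 library left out (3 without ChIP replicate 2, 4 without replicate 3). For ovulation genes they were 2 in 400-bp windows, over 6-fold, over 8-fold and in all 3 libraries, 9 over 3-fold, 1 by the start of any transcript, and 2 to 5 with 1 library left out (2 without ChIP replicate 1).

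No paired analysis was possible because no test was made of ChIP over input, and the labels tie no ChIP library to an input. Setting each ChIP library over the input with the same track-name prefix gave 9 sites and a fold of 29.1 at site 1. The input level at single sites limits the weakest calls, and how deep each library was sequenced is unknown from the tracks.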
